A study of Equus caballus with 28 samples.

Results

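The miR-183 cluster, which holds miR-182, miR-96 and miR-183, was followed across the mare's uterus and the conceptus 13 days after ovulation. Its members were taken by name alone, as the entries eca-miR-182, eca-miR-183 and eca-miR-96 of the deposited table of known horse miRNAs, which gave 3 of 690 known miRNAs. The rule uses names and no measured value. The samples were endometrium, labelled uterus and described in the methods as biopsies, and uterine fluid (UF), each from pregnant mares (5 libraries) and cyclic mares (4 libraries), together with embryo tissue (5 libraries) and yolk sac (YS) fluid (5 libraries). The Warmblood mares each gave a pregnant and a cyclic sample set in a switch-back design, so replicate numbers stand for mares, and the cyclic samples of mare 5 were not used here. Ovulation was induced with hCG in both kinds of cycle, pregnant mares were then inseminated and found pregnant, and cyclic mares are labelled as untreated. The embryos were recovered from the same pregnant mares, freed of the capsule, and their YS fluid was aspirated. Endometrium and embryo were extracted with another kit (RNeasy Mini with MinElute) than UF and YS fluid (miRNeasy Serum/Plasma), so in each comparison of a tissue with a fluid the kit and the compartment cannot be told apart.

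The cluster is a set of neighbouring miRNA genes that vertebrates have kept together and that are transcribed as a single precursor. Its members are best known from sensory epithelia such as the hair cells of the inner ear, the retina and the olfactory epithelium, where changes in miR-96 lead to hearing loss, and from epithelial tumours, in which miR-182 and miR-183 are often abundant. The mature forms have similar but not identical seeds, and their known targets include FOXO1, a transcription factor of decidualizing endometrium, for miR-96 and miR-182, MITF, a regulator of pigment cells and retina, for miR-96 and miR-182, and EZR, which ties the actin cytoskeleton to the membrane, for miR-183. In the RefSeq annotation of the horse assembly TB-T2T the genes follow each other in the order MIR182, MIR96 and MIR183, between NRF1 and UBE2H, with a lncRNA gene between MIR183 and UBE2H. The names of the deposited table carry no arm suffix for these members.

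All 3 members had their highest mean in embryo tissue. On the scale of TMM-normalized CPM (reads relative to the library total, with a scaling over 28 libraries that limits the pull of a few very abundant miRNAs), eca-miR-182 averaged 22583 ± 10000 CPM in embryo (SD, n = 5). It averaged 4133 ± 1604 CPM in YS fluid (SD, n = 5), 3685 ± 730 CPM in pregnant endometrium (SD, n = 5) and 3455 ± 1720 CPM in cyclic endometrium (SD, n = 4). The lowest means were those of pregnant UF at 2970 ± 1092 CPM (SD, n = 5) and of cyclic UF at 2946 ± 990 CPM (SD, n = 4). Levels of a bulk sample do not separate fewer cells of a type from less RNA per cell.

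Depth differed strongly between groups and limits the rarer members. Library totals ran from 280065 to 590593 reads in pregnant endometrium, from 61836 to 371630 in cyclic endometrium, from 62087 to 226308 in cyclic UF, from 79173 to 152860 in pregnant UF, from 28204 to 44768 in embryo and from 4352 to 14531 in YS fluid. By library total, 3 reads were worth 5.08 to 10.7 CPM in pregnant endometrium but 206 to 689 CPM in YS fluid, and 3 reads are taken as the floor of detection. Floors and intervals cover counting error only, because PCR reads are not independent molecules. Markers fitted the labels: the summed early-embryo list (miR-302, miR-367, miR-371 and miR-372) lay between 6162 and 40753 CPM in embryo and between 18535 and 96711 CPM in YS fluid, against at most 52.5 CPM in any maternal library. In embryo, the white-cell list lay between 18.7 and 112 CPM, with eca-miR-142-3p and eca-miR-150 at 0, and the red-cell list between 63.9 and 151 CPM, with eca-miR-144 at 0. By library total, 3 reads were worth 67.0 to 106 CPM in embryo, so these sums and zeros lie near the floor.

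**Figure D1:**
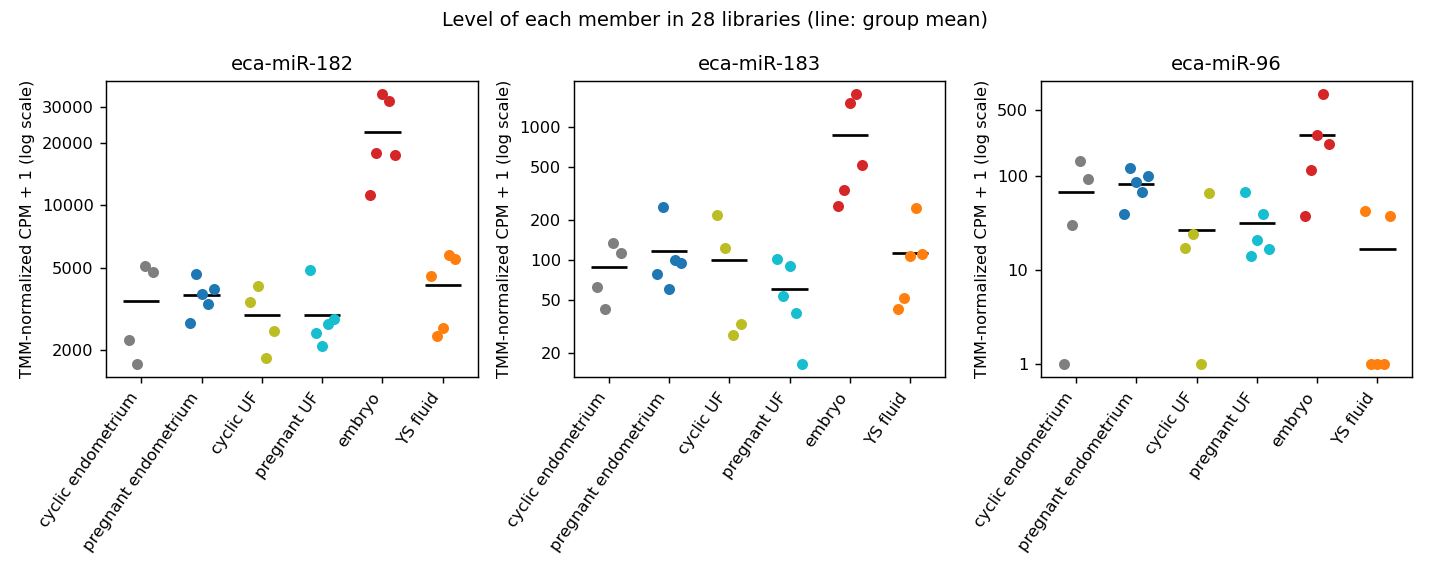
Level of eca-miR-182, eca-miR-183 and eca-miR-96 (TMM-normalized CPM plus 1, log scale) in each of 28 libraries, by group, with a line at the group mean. Embryo lies above every other group for eca-miR-182 and eca-miR-183 and overlaps them for eca-miR-96, for which 3 YS fluid libraries, 1 cyclic endometrium library and 1 cyclic UF library hold no read. The share of all miRNAs that separate as fully was not counted.

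eca-miR-182, a known repressor of FOXO1 in human endometrial cancer cells, carried most of the reads of the cluster. In embryo the values for mares 1 to 5 were 11252, 17941, 34375, 31824 and 17521 CPM, from 619, 1403, 2148, 1472 and 1873 reads. In pregnant endometrium they were 2692, 4663, 3747, 3359 and 3964 CPM. In cyclic endometrium they were 2245, 1719, 5092 and 4766 CPM for mares 1 to 4. The lowest embryo was thus above the highest endometrium of either state. How many other miRNAs separated these groups as fully was not counted. The cyclic endometria fell into a low pair (mares 1 and 2) and a high pair (mares 3 and 4) that enclosed the pregnant ones. YS fluid gave 4549, 2330, 2563, 5738 and 5484 CPM. Pregnant UF gave 4856, 2408, 2083, 2673 and 2831 CPM, and cyclic UF 3413, 4071, 1839 and 2462 CPM. The 2 fluids of the uterus overlapped each other, YS fluid and the endometrium, and mare 1 stood highest among the pregnant UF libraries.

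eca-miR-183, whose known targets include EZR, was also highest in embryo, with far fewer reads. Embryo gave 254, 332, 1504, 1751 and 514 CPM, from 14, 26, 94, 81 and 55 reads. Pregnant endometrium gave 77.2, 250.0, 59.6, 97.6 and 93.4 CPM, from 16, 54, 19, 19 and 16 reads. Every embryo was above every endometrium, by a narrow margin between embryo 1 and the endometrium of mare 2. Here too, the share of all miRNAs that separated as fully was not counted. Cyclic endometrium gave 61.8, 41.7, 134 and 111 CPM, cyclic UF 215, 122, 26.3 and 32.0 CPM and pregnant UF 100.2, 52.1, 89.3, 38.5 and 15.5 CPM. YS fluid held 1, 2, 3, 2 and 3 reads, which is at or under the floor in every library. Outside the embryo these groups overlapped, with means of 59.1 CPM in pregnant UF, 87.1 CPM in cyclic endometrium, 98.7 CPM in cyclic UF and 116 CPM in pregnant endometrium.

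eca-miR-96, the member tied to hereditary hearing loss, was the rarest. Embryo held 2, 9, 17, 34 and 23 reads, or 36.4, 115, 272, 735 and 215 CPM. Pregnant endometrium held 8, 26, 27, 13 and 17 reads, or 38.6, 120.4, 84.7, 66.8 and 99.2 CPM. Embryo 1 lay below every pregnant endometrium and embryo 2 within their range, so these groups overlapped, and the embryo was higher than the endometrium of its own mare in 3 of 5 mares. Cyclic endometrium held 0, 7, 29 and 18 reads, cyclic UF 2, 3, 0 and 10 reads, and pregnant UF 6, 1, 2, 2 and 1 reads. YS fluid held 1 read in each of the libraries of mares 1 and 5 and none in the other 3, where 0 reads allow up to 3 reads or between 208 and 689 CPM by library total.

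Between neighbours in the order of group means with TMM, only the step from embryo to the next group separated the libraries completely. For eca-miR-182 the next group was YS fluid and for eca-miR-183 it was pregnant endometrium, and the exact two-sided permutation test gave p = 0.00794 for both, the smallest that 5 against 5 libraries allow (adjusted p = 0.0595 over 15 neighbour pairs). For eca-miR-96 the step from embryo to pregnant endometrium gave an exact permutation p = 0.167 (adjusted p = 0.833). The remaining 12 steps had overlapping libraries and exact permutation p-values of at least 0.333. With TMM, the order among YS fluid, endometrium and UF is thus not set apart from the spread between mares. With library totals alone, eca-miR-182 in YS fluid lay above cyclic endometrium, its next group, without overlap (exact permutation p = 0.00794, adjusted p = 0.0397). How many other miRNAs show such separations was not counted.

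The comparison of embryo with pregnant endometrium asks which miRNAs mark the conceptus against the mother on day 13. Here 3 of 3 members were called higher in embryo by edgeR's quasi-likelihood test (FDR at most 0.05, with a fold of 2 or more). The background was high, since 28.7% of the 359 miRNAs tested were called higher and 71.3% were called in either direction. eca-miR-182 was 7.29-fold higher (log2 fold change 2.87, SE 0.31, FDR = 8.42e-06) and eca-miR-183 was 8.42-fold higher (3.07, SE 0.66, FDR = 0.00162), both in 5 of 5 mares. eca-miR-96 was 3.81-fold higher (1.93, SE 0.65, FDR = 0.0189). The call of eca-miR-96 was lost with the mare as a block (log2 fold change 1.58, FDR = 0.0685) and without embryo 4, which held 34 of the 85 embryo reads (1.12, FDR = 0.103).

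The scaling between libraries moved all miRNAs of this comparison together. The median log2 fold change of all miRNAs tested between embryo and pregnant endometrium was -1.02, and it moved to -0.56 with RLE size factors (median of ratios) and to 0.30 with library totals alone. The calls of all miRNAs split into 103 higher and 153 lower with TMM, 115 and 133 with RLE, and 140 and 94 with library totals alone. With TMM, eca-miR-182 lay 3.89 above that median, eca-miR-183 4.10 above it and eca-miR-96 2.95 above it, and since a scaling shifts members and median alike, these distances say nothing on how the members depend on it.

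**Figure D2:**
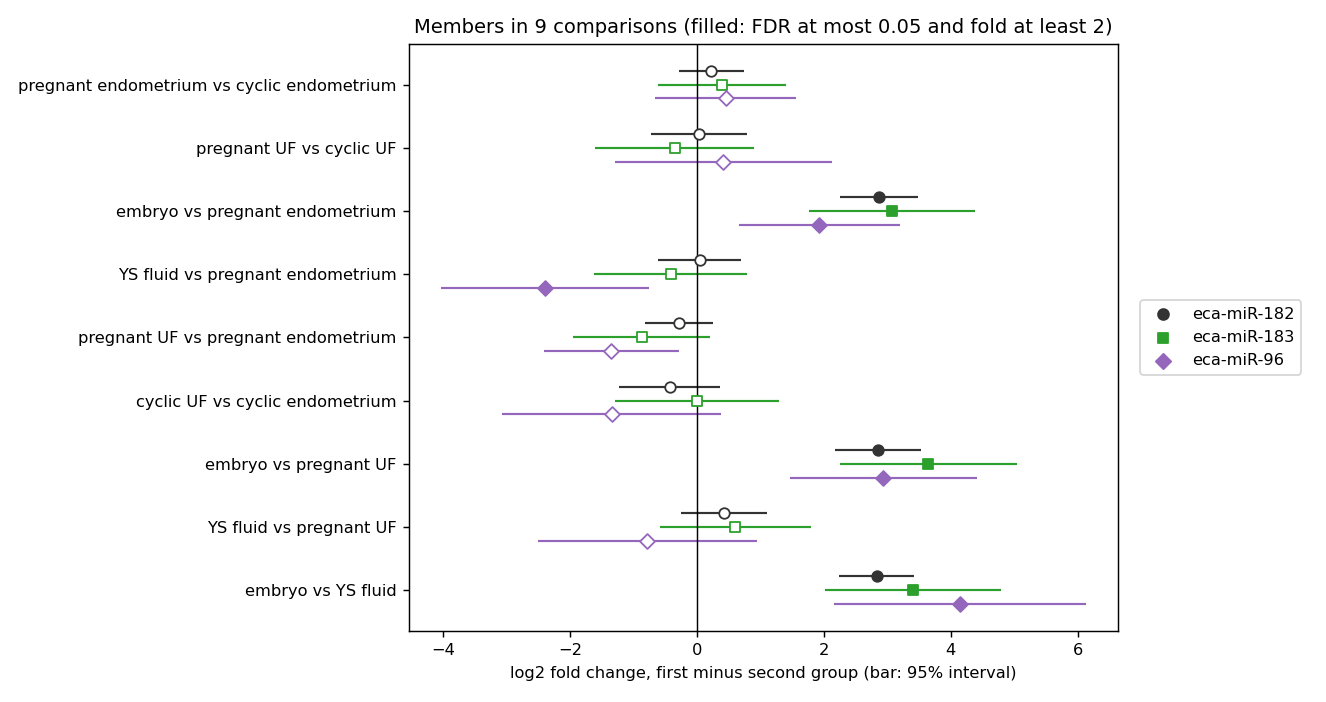
Log2 fold change (first minus second group) of each member in 9 comparisons, with bars for the 95% interval and filled symbols for calls at FDR at most 0.05 and a fold of at least 2. The 9 values of the comparisons of embryo with pregnant endometrium, pregnant UF and YS fluid lie between 1.93 and 4.14 and are all called. Of all miRNAs tested, 28.7%, 29.7% and 22% were called higher in embryo in these comparisons. The only other call is eca-miR-96 in YS fluid against pregnant endometrium. In comparisons with YS fluid, eca-miR-96 entered the test only through the other group, so its calls there are not counted as support.

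Embryo was also compared with the fluid around it and with the fluid inside it. Against pregnant UF, 3 of 3 members were called higher in embryo, where 29.7% of 310 miRNAs tested were called higher and 68.4% called in all. The log2 fold changes were 2.85 for eca-miR-182 (SE 0.35, FDR = 2.46e-05), 3.64 for eca-miR-183 (SE 0.71, FDR = 0.000781) and 2.94 for eca-miR-96 (SE 0.75, FDR = 0.00468). The value of eca-miR-96 rests on 12 reads in pregnant UF, 6 of them from mare 1. The other pregnant UF libraries held 1 or 2 reads, under the floor of 3, so the size of this difference is uncertain. Libraries of embryo and pregnant UF did not overlap for eca-miR-182 and eca-miR-183, while for eca-miR-96 embryo 1 lay below the UF of the same mare. How many of all miRNAs tested separated as fully was not counted, so the lack of overlap is a description only. Calls of all miRNAs split into 92 higher and 120 lower with TMM and into 146 and 85 with library totals alone, under which the members remained higher by 4.36, 5.23 and 4.46.

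Against YS fluid, eca-miR-182 and eca-miR-183 were called higher in embryo, where 22% of 259 miRNAs tested were called higher and 35.1% called in all. eca-miR-96 was called as well, but with reads in 2 of 5 YS fluid libraries it entered the test only through the embryo, where it is high, so its call is not counted as support. eca-miR-182 was 7.12-fold higher (log2 fold change 2.83, SE 0.30, FDR = 8.36e-05) and ranked 2 by p-value among the 259 miRNAs. The fitted log2 fold changes of eca-miR-183 (3.41, SE 0.71, FDR = 0.00428) and eca-miR-96 (4.14, SE 1.01, FDR = 0.0121) rest on 11 and 2 reads in the 5 YS fluid libraries together, so their size is uncertain. As plain rates of pooled reads, eca-miR-183 was 7.38-fold higher in embryo (95% counting interval 4.06 to 14.97) and eca-miR-96 was 12.8-fold higher (3.43 to 107). With library totals alone the calls of all miRNAs split into 40 higher and 55 lower in place of 57 and 34, and eca-miR-182 was higher by 2.14.

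YS fluid against the maternal compartments gave values that moved with the scaling. Against pregnant endometrium, eca-miR-182 had a log2 difference of 0.05 (SE 0.33, FDR = 0.924, edgeR) and eca-miR-183 of -0.41 (SE 0.61, FDR = 0.616, edgeR). eca-miR-96 was the 1 of 3 members called, lower in YS fluid with a fitted log2 fold change of -2.39 (SE 0.83, FDR = 0.0236, edgeR), where 53.1% of the 341 miRNAs tested were called and 35.2% were called lower. It entered the test through the endometrium, where it is high, the call rests on 2 reads in YS fluid against 91 in pregnant endometrium, and the plain ratio of pooled rates was 0.749 with a 95% counting interval of 0.0894 to 2.79. It was lost with RLE size factors (-1.60), library totals alone (-0.41), DESeq2 (-1.49), 28 libraries in a single fit (-1.66), known miRNAs only (-1.70) and without YS fluid replicate 2 (-2.16).

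With library totals alone, under which the median of all miRNAs rose from -0.84 to 1.16, eca-miR-182 was called higher in YS fluid than in pregnant endometrium (log2 fold change 2.06). Calls of all miRNAs then split into 119 higher and 59 lower in place of 61 and 120. With TMM, eca-miR-182 lay 0.88 above the median of all miRNAs.

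Against pregnant UF, 0 of 3 members were called in YS fluid by edgeR, where 59.2% of 277 miRNAs tested were called, with 0 at an unadjusted p under 0.05 and 1 called by DESeq2. The log2 differences were 0.43 for eca-miR-182 (95% interval -0.25 to 1.10), 0.60 for eca-miR-183 (-0.58 to 1.79) and -0.78 for eca-miR-96 (-2.51 to 0.94). eca-miR-182 was called higher in YS fluid with RLE size factors (1.19), DESeq2 (1.19), a minimum-count filter (1.32), a single fit of 28 libraries and library totals alone (2.22), and eca-miR-183 with library totals alone (2.33). The calls of all miRNAs split into 65 higher and 99 lower with TMM, 87 and 78 with RLE and 114 and 53 with library totals alone.

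As a plain share of the miRNA reads of a library, the cluster made up between 2.25 and 6.24% in embryo and between 0.582 and 1.46% in YS fluid. It made up between 0.169 and 0.322% in pregnant endometrium, between 0.143 and 0.352% in cyclic endometrium, between 0.145 and 0.335% in pregnant UF and between 0.114 and 0.263% in cyclic UF. On this scale the embryo libraries lay above all YS fluid libraries, and those above all maternal libraries. The separation of YS fluid from the maternal groups was not present on the TMM scale, where the summed level averaged 4259 ± 1662 CPM in YS fluid (SD, n = 5) and 3882 ± 819 CPM in pregnant endometrium (SD, n = 5).

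**Figure D3:**
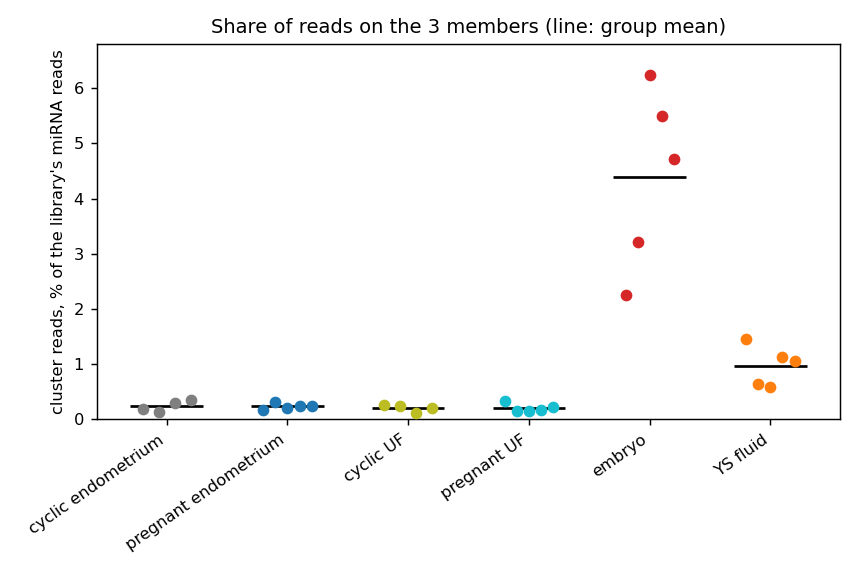
Reads on the 3 members as a percent of all miRNA reads of the library, for 28 libraries by group, with a line at the group mean. Embryo lies between 2.25 and 6.24%, YS fluid between 0.582 and 1.46%, and all 18 maternal libraries at or under 0.352%.

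Between UF and endometrium, the comparison asks how the luminal fluid differs from the tissue that lines it. In pregnant mares 0 of 3 members were called by edgeR, where 33.7% of the 359 miRNAs tested were called and 20.1% called lower, with 1 at an unadjusted p under 0.05 and 0 called by DESeq2. The log2 differences, UF minus endometrium, were -0.28 for eca-miR-182 (95% interval -0.82 to 0.26), -0.87 for eca-miR-183 (-1.94 to 0.20) and -1.35 for eca-miR-96 (-2.41 to -0.29, FDR = 0.0632). eca-miR-96 was higher in UF in 1 of 5 mares, and it was called lower in UF by the likelihood ratio test (-1.35) and without pregnant UF replicate 1 (-1.90). In cyclic mares 0 of 3 members were called by edgeR, where 30.8% of 328 miRNAs tested were called, with 0 at an unadjusted p under 0.05 and 0 called by DESeq2. The log2 differences there were -0.43 for eca-miR-182 (-1.23 to 0.37), 0.01 for eca-miR-183 (-1.28 to 1.30) and -1.34 for eca-miR-96 (-3.06 to 0.37).

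These fluids differed from the endometrium in their cell markers while the cluster was not called. The summed smooth-muscle and stroma list lay between 27412 and 95669 CPM in pregnant endometrium and between 546 and 9885 CPM in pregnant UF, with 6 of 7 entries called lower. The ciliated-epithelium list (miR-34b, miR-34c and miR-449a) lay between 9450 and 24702 CPM in pregnant endometrium and between 74335 and 113954 CPM in pregnant UF, with 4 of 4 entries called higher, where 13.6% of all miRNAs tested were called higher and 20.1% lower. Their part in the values of the cluster was not tested.

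Pregnancy made no difference to the cluster that was detectable with 4 mares sampled in both states. Between pregnant and cyclic endometrium 0 of 3 members were called by edgeR with the mare as a block, where 3.37% of 386 miRNAs tested were called, with 0 at an unadjusted p under 0.05 and 0 called by DESeq2. The log2 differences, pregnant minus cyclic, were 0.22 for eca-miR-182 (95% interval -0.29 to 0.74), 0.39 for eca-miR-183 (-0.61 to 1.40) and 0.45 for eca-miR-96 (-0.66 to 1.56). Each member was higher in the pregnant sample in 2 of 4 mares, and without mare 2 the differences were -0.19, -0.43 and -0.26.

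In UF 0 of 3 members were called by edgeR between pregnant and cyclic samples, where 4.92% of 305 miRNAs tested were called, with 0 at an unadjusted p under 0.05 and 0 called by DESeq2. The log2 differences were 0.04 for eca-miR-182 (-0.72 to 0.79), -0.35 for eca-miR-183 (-1.60 to 0.90) and 0.42 for eca-miR-96 (-1.29 to 2.13). The effect in UF minus that in endometrium was -0.29 for eca-miR-182 (-1.21 to 0.64), -0.88 for eca-miR-183 (-2.57 to 0.82) and -0.08 for eca-miR-96 (-2.22 to 2.05), with 0 of 3 called in the interaction test of edgeR, where 1.69% of 415 miRNAs were called. The upper limits of these intervals were lowest for eca-miR-182, at 0.74 in endometrium and 0.79 in UF.

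The split of the reads between members could be tested only coarsely. Over 28 libraries eca-miR-182 had 17141 reads, eca-miR-183 had 541 and eca-miR-96 had 259, or 31.7 reads of eca-miR-182 for each read of eca-miR-183 and 66.2 for each read of eca-miR-96. These are read counts of different miRNAs, which differ in how well they are ligated and amplified, so the ratios compare groups rather than molecule numbers. The pooled ratio of eca-miR-182 to eca-miR-183 ran from 27.8 in embryo to 46.1 in pregnant UF, and eca-miR-182 made up between 92.6 and 98.9% of the cluster in each library. Of 27 tests of a member's share between groups, 0 passed an adjusted p of 0.05 by the exact permutation test, with 5 at an unadjusted p under 0.05. A complete separation of 5 against 5 libraries, whose exact permutation p is 0.00794, adjusts to 0.214 when it stands alone among 27 tests, so this count does not show that shares were alike.

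Those 5 all compared pregnant endometrium with another compartment of pregnancy, and 3 of them concerned eca-miR-96. Its share of the cluster reads averaged 2.05 ± 0.426% in pregnant endometrium (SD, n = 5) and 1.00 ± 0.708% in embryo (SD, n = 5, exact permutation p = 0.0317, adjusted p = 0.214). The share was 0.940 ± 0.417% in pregnant UF (SD, n = 5, exact permutation p = 0.0159, adjusted p = 0.214) and 0.310 ± 0.434% in YS fluid (SD, n = 5, exact permutation p = 0.00794, the smallest possible, adjusted p = 0.214). In the endometrium of 5 mares the share ran from 1.37 to 2.39%, and the YS fluid libraries, from 0 to 0.901%, did not overlap that range. The YS fluid share rests on 2 reads of eca-miR-96 in all, among 49 to 154 cluster reads per library. That of pregnant UF rests on 12 reads. Both lie near the floor of detection, so the size of these share differences is uncertain.

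The label of an epithelial cluster was checked against other epithelial miRNAs. The list held 6 measured names, the miR-200 family (eca-miR-200a, eca-miR-200b, eca-miR-200c, eca-miR-141 and eca-miR-429), which represses the ZEB factors and so keeps the epithelial state, and eca-miR-205, a miRNA of stratified and basal epithelia. Each had reads in all 6 groups, and the summed list lay between 88059 and 121202 CPM in pregnant endometrium, between 48045 and 76368 CPM in embryo and between 17833 and 50969 CPM in YS fluid. In embryo against pregnant endometrium 1 of 6 was called higher and 3 lower, near the 28.7% and 42.6% of all miRNAs tested, with a median log2 fold change of -1.34 beside -1.02. With RLE 2 were called higher and 2 lower, and with library totals alone 2 and 1.

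Against pregnant UF 0 of the list were called higher and 4 lower with TMM, where 38.7% of all miRNAs tested were called lower (median -1.67 beside -0.23). With RLE 1 was called higher and 3 lower, and with library totals alone 2 (eca-miR-200b at 1.92 and eca-miR-429 at 1.46) and 2. Against YS fluid 3 were called higher in embryo and 0 lower (median 1.18 beside 0.28), where 22% of all miRNAs tested were called higher. eca-miR-200c (-0.86) and eca-miR-205 (-0.41) had the other sign without a call. With library totals alone 2 were called higher and 1 lower, the latter eca-miR-200c (-1.56).

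The members of the miR-200 family moved apart from each other in the embryo. Against pregnant endometrium eca-miR-429 was called higher (log2 fold change 1.19, FDR = 0.00428, edgeR) and eca-miR-200b had a difference of 0.81 (FDR = 0.00319, edgeR), below the fold threshold with TMM and past it with RLE (1.29) and library totals alone (2.13). eca-miR-200c (-2.56, FDR = 1.01e-05, edgeR) and eca-miR-141 (-2.27, FDR = 0.00462, edgeR) were called lower. With library totals alone eca-miR-200c was still called lower (-1.25) and eca-miR-141 was not called (-0.96). eca-miR-200a had a difference of -0.41 that turned to 0.88 with library totals alone.

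The direction of the summed miR-200 family depended on the scaling. With TMM it averaged 64263 CPM in embryo and 99949 CPM in pregnant endometrium, while as a share of the miRNA reads of a library it ran from 9.37 to 13.2% in embryo, from 4.92 to 7.21% in pregnant endometrium and from 4.86 to 11.8% in YS fluid. The ratio of eca-miR-182 to the family within a library does not depend on the scaling between libraries, and was chosen after its values had been seen. In embryo there were 23.4, 24.0, 45.0, 43.9 and 35.2 reads of eca-miR-182 per 100 reads of the family. YS fluid had 12.2, 13.1, 5.03, 12.7 and 11.8, and pregnant endometrium had 3.06, 4.68, 4.11, 3.37 and 3.27. Pregnant UF had 3.59, 2.01, 1.94, 2.66 and 3.49. Embryo libraries were above YS fluid libraries without overlap, and the latter were above pregnant endometrium and pregnant UF, with mare 3 lowest among the YS fluids.

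The ratio in embryo was 9.04-fold that of pregnant endometrium, 12.5-fold that of pregnant UF and 3.18-fold that of YS fluid. YS fluid in turn was 2.85-fold pregnant endometrium and 3.92-fold pregnant UF. Each of these 5 differences had an exact permutation p = 0.00794, the smallest possible (adjusted p = 0.0143 over 9 comparisons). The permutation treated compartments of the same mare as independent, and a test paired by mare was not run on them. The ratio was also chosen after its values had been seen. These p-values therefore describe the separation of the libraries and are not counted as support. The ratio in UF against endometrium gave an adjusted exact permutation p = 0.119 in pregnant and of 0.331 in cyclic mares. Pregnant against cyclic samples gave an adjusted p = 0.875 in both by exact sign flips within mares. Without cyclic endometrium replicate 2, the cyclic UF was lower than cyclic endometrium by -0.86 on the log2 scale (adjusted exact permutation p = 0.0429).

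**Figure D4:**
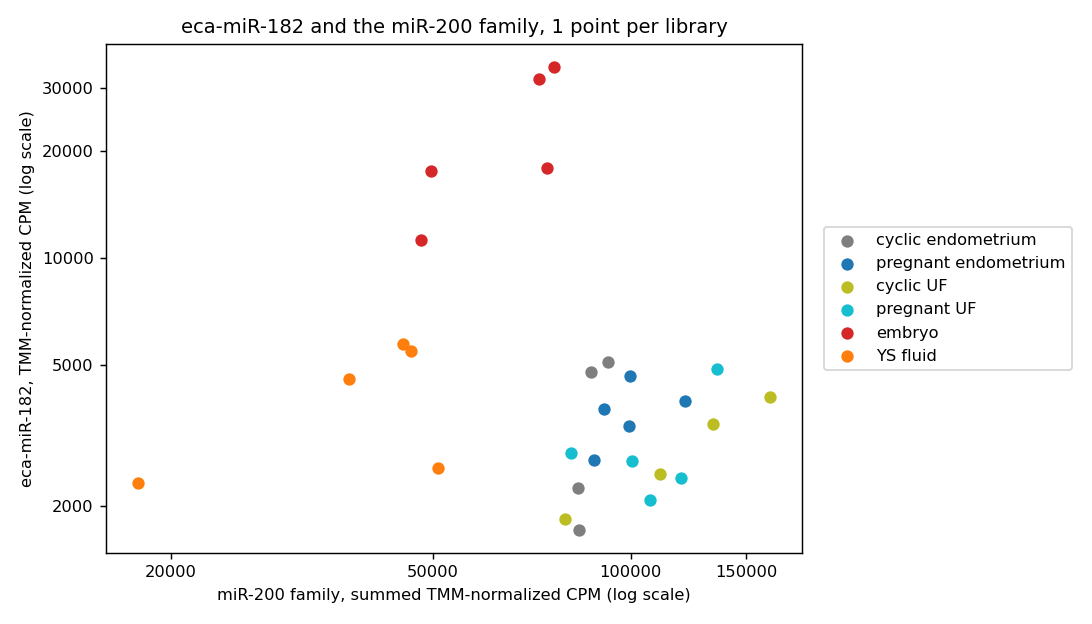
TMM-normalized CPM of eca-miR-182 against the summed TMM-normalized CPM of the miR-200 family, both on log scales, 1 point per library and a colour per group. On this scale embryo and YS fluid lie at lower miR-200 family levels than all maternal libraries, which does not hold by library total, and embryo stands out at 23.4 to 45.0 reads of eca-miR-182 per 100 reads of the family, against 5.03 to 13.1 in YS fluid and 1.94 to 5.51 in the maternal libraries.

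The miRNAs most like the cluster also depended on the scaling. Across 28 libraries, which come from 6 groups and differ in depth, the summed level of the cluster had its highest Spearman correlations with eca-miR-16 (0.62), eca-miR-378 (0.58), eca-miR-130b (0.58), eca-miR-9a (0.57) and eca-miR-7 (0.56), among 147 known miRNAs with a mean of at least 100 CPM. eca-miR-200b ranked 8 (0.51), whereas eca-miR-200c (-0.44) and eca-miR-205 (-0.51) ranked 111 and 126. Like the cluster, eca-miR-16 averaged highest in embryo, at 37553 CPM against 14087 CPM in pregnant endometrium. With library totals alone 2 of these 5 remained among the top 5, eca-miR-16 and eca-miR-130b, and eca-miR-200b ranked 3 (0.82).

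Within the cluster, the pattern of eca-miR-182 was nearest to that of eca-miR-183 (Spearman correlation 0.82, rank 1 of 149 candidates) and then to that of eca-miR-96 (0.67, rank 2). eca-miR-96 was nearest to eca-miR-590-3p (0.74), with eca-miR-182 at rank 3 and eca-miR-183 at rank 12 (0.51). For eca-miR-183, eca-miR-200b ranked 3 (0.66), and for eca-miR-96 it ranked 5 (0.60). These values describe the 28 libraries and are not tests, since libraries of a group share their tissue and the low reads of eca-miR-96 add counting noise.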

How the data were processed

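miRNA sequencing was available for 28 libraries of mares and their conceptuses, and the deposited values are raw read counts per miRNA, which the authors did not normalize. Per the labels, libraries were made with the TailorMix kit, and the authors trimmed adapters with cutadapt 1.11 and, by the study's methods, counted reads on known horse miRNAs and on miRNAs predicted with miRPro on EquCab2.0. How reads that match several miRNAs were shared is not given in the sources used here. The table of precursors was not used, and 0 columns of per-sample values were left out. Groups came from the labels.

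Known and predicted miRNAs were tested together with edgeR 4.0.16 in R 4.3.3 (TMM, quasi-likelihood, at least 1 CPM in as many libraries as the smaller group, Benjamini-Hochberg over all miRNAs tested, FDR at most 0.05 and fold at least 2), a fit per comparison. Levels per library used TMM over all 28 libraries, tests of shares and order used exact permutation of libraries in Python 3.11.15 (pseudocount 1 CPM for the order, at least 10 cluster reads for shares), and DESeq2 1.42.0 was an alternative. The permutations treated libraries of the same mare as independent. Only shares and ratios of pregnant against cyclic samples were tested by exact sign flips within mares. Following the study, pregnant and cyclic samples were compared with the mare as a block. Pairing comes from the shared mare. The deviations of same-mare libraries correlated at 0.0991 on average in endometrium and 0.0912 in UF, against -0.0248 and -0.0239 for other mares. The deviations were taken from group means, which ties these averages to each other, so they are not an independent contrast. The fits of some comparisons were tested on simulated counts with balanced changes, a single dispersion and no mare effect. Such counts do not cover the unbalanced shifts between compartments seen here. Named miRNAs were all members, the epithelial list and the 5 miRNAs most correlated with the cluster sum, and marker miRNAs at 0 and eca-miR-590-3p were named after their values were seen. Members, lists and rules were chosen with earlier results of these data known.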

Additional observations from a re-analysis of the deposited data

Results flagged for a closer look

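Of 18 combinations of a member and a group, 2 held a library far from the others of its group by Dixon's test, and chance gives about 1 in 20 such cases. eca-miR-182 stood at 4856 CPM (436 reads) in pregnant UF replicate 1, where the group's median was 2673 CPM. eca-miR-183 stood at 250.0 CPM (54 reads) in pregnant endometrium replicate 2, where the median was 93.4 CPM. Without pregnant UF replicate 1, eca-miR-96 was called lower in pregnant UF than in pregnant endometrium, and without mare 2 the difference between pregnant and cyclic endometrium changed sign for each member.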

How the results depend on the processing

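The log2 fold changes of the members in the embryo comparisons kept their direction in 178 of 178 alternatives and their call in 176, with the exceptions of eca-miR-96 given in the report. These include 19 alternatives of eca-miR-96 in embryo against YS fluid, which are not counted as support. Against pregnant endometrium the log2 fold changes ranged from 2.57 to 4.21 for eca-miR-182 and from 1.12 to 3.28 for eca-miR-96. In the other comparisons 44 of 350 alternatives changed the sign of a difference, none of them called. Beyond the report, the members called in YS fluid against pregnant endometrium fell from 1 to 0 with RLE, filterByExpr (minimum count 10), DESeq2, 28 libraries in a single fit and known miRNAs only, and ran from 0 to 1 when libraries were left out. Those in pregnant UF against pregnant endometrium rose from 0 to 1 with the likelihood ratio test and ran from 0 to 1 when libraries were left out. Those in YS fluid against pregnant UF rose from 0 to 1 with RLE, filterByExpr, DESeq2 and 28 libraries, and to 2 with library totals alone. Under the latter, 114 of the 277 miRNAs tested were called higher and 53 lower. By the main fits, 53.1%, 33.7% and 59.2% of all miRNAs tested were called in these comparisons, in the order given. With library totals alone the neighbour steps past an adjusted p of 0.05 rose from 0 to 3 and the most alike miRNAs fell from 5 to 2. Among those steps was that of eca-miR-182 from YS fluid down to cyclic endometrium. The causes were not tested.

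For eca-miR-182 the difference turned to -0.0073 in pregnant against cyclic endometrium and to -0.043 in UF with library totals alone, to -0.018 in UF with filterByExpr, and in YS fluid against pregnant endometrium to -0.35 without a filter and to -0.0080 with the replicate block. For eca-miR-183 in YS fluid against pregnant endometrium it turned to 0.37 with RLE, 1.55 with totals alone, 0.17 with filterByExpr, 0.36 with DESeq2, 0.33 with 28 libraries and 0.26 with known miRNAs only, and in cyclic UF against cyclic endometrium to -0.21 with the replicate block. For eca-miR-96 it turned to 0.79 in YS fluid against pregnant UF with totals alone, and the effect in UF minus that in endometrium turned to 0.21 with RLE, 0.071 with totals alone, 0.0041 without a filter and 0.020 with filterByExpr.

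When mares were left out in turn, pregnant against cyclic endometrium ran from -0.19 to 0.41 for eca-miR-182, from -0.43 to 0.77 for eca-miR-183 and from -0.26 to 0.83 for eca-miR-96. In UF it ran from -0.12 to 0.17 for eca-miR-182 and from -0.31 to 1.16 for eca-miR-96. The effect in UF minus that in endometrium ran from -0.31 to 0.33, from -1.59 to 0.19 and from -0.59 to 0.85 for eca-miR-182, eca-miR-183 and eca-miR-96. When libraries were left out, eca-miR-182 ran from -0.48 to -0.031 in YS fluid against pregnant endometrium and from -0.41 to 0.22 in cyclic UF against cyclic endometrium, and eca-miR-183 from -0.54 to 0.76 in the latter. The log2 difference in the ratio of eca-miR-182 to the miR-200 family, added after seeing the data, ran from -0.31 to 0.31 between pregnant and cyclic endometrium and from -0.10 to 0.17 in UF.

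Counts over all miRNAs moved by over 1.5 times in 22 alternatives. The 13 calls between pregnant and cyclic endometrium became 3 with filterByExpr, 2 with known miRNAs only and 0 without the replicate block or with 28 libraries, and the 15 in UF became 0, 3, 0 and 7, and 7 with DESeq2. With filterByExpr the calls fell from 256 to 140 for embryo against pregnant endometrium, from 121 to 75 for pregnant UF against it, from 212 to 101 for embryo against pregnant UF, from 164 to 90 for YS fluid against pregnant UF and from 91 to 40 for embryo against YS fluid, the last to 54 with the replicate block and to between 49 and 90 when libraries were left out. Calls in UF ran from 3 to 26 when mares were left out. The replicate block changed no other call of a member than that of eca-miR-96 in embryo against pregnant endometrium.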
